A study of Mus musculus with 4 samples.

Results

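The protein kinases, ubiquitin ligases and partners that set how long clock proteins last were followed as 7 genes, taken from the deposited tables by their gene symbols out of 20207 genes. They are Csnk1d and Csnk1e, which encode casein kinases 1 delta and epsilon, the F-box genes Btrc, Fbxw11 and Fbxl21, the deubiquitinase gene Usp2, and Timeless. RNA was sequenced from adipocyte precursor cells, the progenitors of fat cells, sorted from adipose tissue of young C57BL/6 mice as Sca1+ CD45- CD31- at zeitgeber time 2, in the early light phase. There were 2 libraries from Per3 KO mice and 2 from wild-type (WT) littermates. The labels do not name the Per3 allele or the fat depot. They are silent on whether replicates are separate animals, and the p-values below then reflect the spread of these samples alone, which may be technical.

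The circadian clock runs on proteins that repress their own genes and are then destroyed. Casein kinases 1 delta and epsilon phosphorylate the period proteins, and beta-TrCP, the F-box protein made in closely related forms from Btrc and Fbxw11, hands the phosphorylated proteins to the SCF ubiquitin ligase. FBXL21, another F-box protein, binds cryptochromes, USP2 removes ubiquitin from several clock proteins, and TIMELESS binds cryptochromes and travels with the DNA replication fork. Fat cells and their precursors carry such clocks of their own.

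Total gene reads were between 40003115 and 64964443 in the Per3 KO libraries and between 27950825 and 37101227 in the WT libraries. Per3 itself had 193 and 768 reads in Per3 KO 1 and 2 against 121 and 170 reads in WT 1 and 2, or 4.66 and 10.5 CPM against 3.16 and 7.31 CPM (counts scaled to a common library total). The normalised Per3 levels of the labelled knockouts and WT overlapped, and a count over the whole gene cannot show the loss of a part, so "KO" below is the label of a library. Markers of stroma were abundant, and the 13 precursor markers summed to 76430 and 67950 CPM in Per3 KO 1 and 2 and 79700 and 111300 CPM in WT 1 and 2. Both Per3 KO sums thus lay below both WT sums. The collagen genes Col1a1 and Col3a1 held much of each sum, with 44890 and 35860 CPM in WT 2. Single markers were less even. Lum was at 3782 and 3244 CPM in Per3 KO 1 and 2 and 4334 and 728 CPM in WT 1 and 2, while Dcn was at 11870 to 13500 CPM throughout. Of the genes behind the sort, Ly6a, which encodes Sca1, was at 3767 and 2133 CPM against 2597 and 14270 CPM, highest in WT 2. Ptprc, which encodes CD45, was at 0.0966 and 0.686 CPM in Per3 KO 1 and 2 against 0 and 0.215 CPM in WT 1 and 2. Pecam1, which encodes CD31, was at 6.74 and 5.19 CPM against 2.06 and 8.86 CPM. The 17 leukocyte markers summed to 34.2 and 28.4 CPM in the Per3 KO libraries and 13.1 and 65.4 CPM in the WT libraries. Ly6a, Ptprc, Pecam1 and the leukocyte sum overlapped between the groups.

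Of the 7 genes, 6 could be compared between the genotypes, and none passed the test. In edgeR's quasi-likelihood test over 12494 genes with Benjamini-Hochberg adjustment, 0% of all genes and 0 of the 6 clock protein regulators had an adjusted p under 0.05. At an unadjusted p under 0.05 there were 0 of the 6, beside 2.06% of all genes tested (257). DESeq2 called 19 genes (0.134%) and limma on log2(RPKM + 0.5) called 1 (0.0121%), none of them a clock protein regulator, where limma left out Timeless for its low level. Usp2 and Csnk1d lay above both WT libraries in both Per3 KO libraries, beside 14.6% of all genes tested, and none of the 6 lay below both, beside 11.5%. The seventh gene, Fbxl21, had too few reads to be tested. The median log2 fold change of the 6 was 0.15, with 4 positive and 2 negative, beside a median of 0.01 over all genes, of which 50.6% were positive. The median of the 6 was 0.05 without WT 1 and 0.37 without WT 2, where that of all genes was 0.17 and 0.06.

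**Figure D1:**
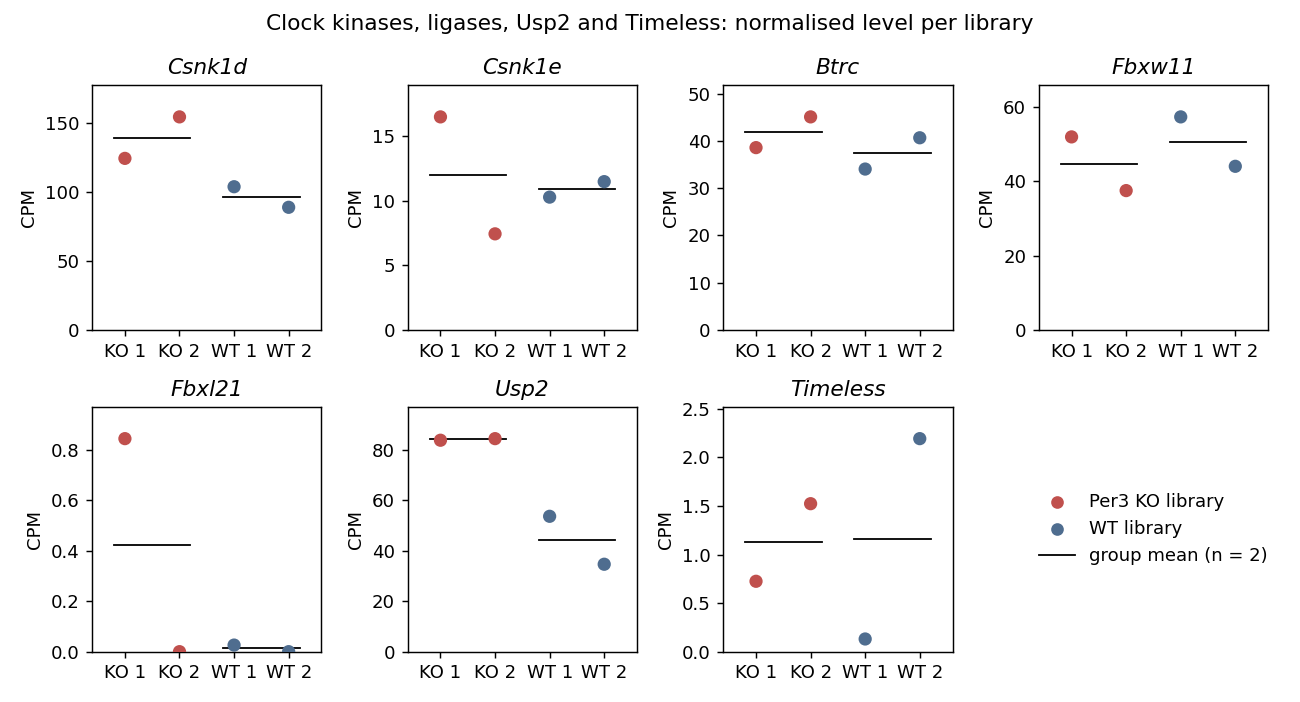
Normalised level (CPM, vertical axes from 0) of each of the 7 genes in the 4 libraries, with the Per3 KO libraries in red, the WT libraries in blue and a line at each group's mean (n = 2). Usp2 was at 83.9 and 84.5 CPM in the Per3 KO libraries, above 53.7 and 34.7 CPM in the WT libraries, and Fbxl21 was seen almost only in Per3 KO 1.

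The 7 genes spanned a wide range of levels. Compared per length, in RPKM (reads scaled by transcript length and library total), the mean over the 4 libraries was 17.2 ± 6.11 for Csnk1d, 9.44 ± 4.12 for Usp2, 6.33 ± 1.64 for Fbxw11, 3.37 ± 0.717 for Btrc, 2.19 ± 0.816 for Csnk1e, 0.129 ± 0.0910 for Timeless and 0.0624 ± 0.120 for Fbxl21 (SD, n = 4). Csnk1d was the highest of the 7 in each of the 4 libraries. Usp2 and Fbxw11 did not differ beyond their spread, and Fbxw11 was above Usp2 in both WT libraries. Btrc was above Csnk1e in each of the 4 libraries, by the least in Per3 KO 1 (3.498 and 3.37 RPKM). Timeless and Fbxl21 were within their spread of each other.

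Csnk1d (mm9 chromosome 11, 120823055 to 120852647), the more abundant of the kinases, had 5139 and 11230 reads in Per3 KO 1 and 2 and 3970 and 2063 reads in WT 1 and 2. Its normalised level was 124 and 154 CPM in the Per3 KO libraries against 104 and 88.7 CPM in the WT libraries, so the groups did not overlap. In such bulk samples, fewer cells that express a gene and less RNA per cell cannot be told apart. The means were 139 ± 21.2 and 96.1 ± 10.5 CPM (SD, n = 2 each), a difference of 0.53 ± 0.50 on the log2 scale (SE, edgeR adjusted p = 1.00, and between 0.555 and 1.00 over 14 alternatives). The fold change remained positive with any library left out, between 0.37 and 0.66.

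Csnk1e (chromosome 15, 79248282 to 79272487), its close relative, did not separate the genotypes. It had 683 and 542 reads in Per3 KO 1 and 2 and 394 and 267 in WT 1 and 2, or 16.5 and 7.44 CPM against 10.3 and 11.5 CPM. The Per3 KO libraries lay on both sides of the WT pair. The log2 fold change of 0.14 ± 0.67 (SE) turned to -0.57 without Per3 KO 1. The balance of the 2 kinases was also read within each library, which does not depend on the scaling between libraries. Csnk1d exceeded Csnk1e 5.54-fold and 15.3-fold per length in Per3 KO 1 and 2, and 7.55-fold and 5.79-fold in WT 1 and 2. The log2 ratio averaged 3.200 ± 1.03 in the Per3 KO libraries and 2.72 ± 0.27 in the WT libraries (SD, n = 2 each). The difference of 0.48 rested on Per3 KO 2 and was -0.25 without it (exact two-sided permutation test, p = 1.00, where 2 against 2 cannot go below 0.3333).

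The wider casein kinase 1 family was read for comparison. Csnk1a1, which encodes casein kinase 1 alpha, was as abundant as Csnk1d, at 16.9 and 22.1 RPKM in Per3 KO 1 and 2 and 13.8 and 10.7 RPKM in WT 1 and 2. Its groups did not overlap in CPM either, with 60.4 and 74.6 CPM against 49.3 and 52.9 CPM and 0.40 ± 0.46 as the log2 fold change (SE). Of the summed RPKM of the 6 family genes, Csnk1d made up 42.6% and 45.1% in the Per3 KO libraries and 41.3% and 40.1% in the WT libraries. Csnk1e made up 7.69% and 2.96% in Per3 KO 1 and 2, against 5.47% and 6.92% in WT 1 and 2. The gamma kinases Csnk1g1 (0.91 ± 0.67) and Csnk1g3 (-0.23 ± 0.53) had log2 fold changes of opposite sign, with Csnk1g1 at 0.56 without WT 2 and Csnk1g3 at 0.01 without Per3 KO 2. The other gamma kinase gene, Csnk1g2, had 472 reads in WT 1 and 6 in WT 2. Its log2 fold change of 0.30 ± 1.38 (SE) ranged from -0.66 to 4.90 with a library left out.

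Of 25 other kinases and phosphatases that act on clock proteins, the log2 fold change was positive in 11 and negative in 14, with a median of -0.02 (0.21 without WT 2), and 0 passed the test. Both Per3 KO libraries were above both WT libraries for 3 of them (12.0%, beside 14.6% of all genes) and below for 2 (8%, beside 11.5%). The neuronal-type kinase gene Cdk5 was at 34.9 and 32.4 CPM in Per3 KO 1 and 2 and 50.5 and 54.8 CPM in WT 1 and 2, or -0.65 ± 0.46 (log2 fold change, SE). The casein kinase 2 subunit gene Csnk2b (-0.75) and the phosphatase gene Ppp2cb (-0.62) had negative values that rested on WT 2, which held 363 CPM of Csnk2b where the other 3 libraries held 105 to 187 CPM, and were 0.21 and 0.18 without it. For the phosphatase gene Ppp5c, WT 2 was instead the lowest library, with 17 reads, and the log2 fold change of 1.26 became 0.34 without it.

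Btrc (chromosome 19, 45438224 to 45607833), which encodes beta-TrCP1, was close to even. It had 1598 and 3286 reads in Per3 KO 1 and 2 and 1305 and 946 in WT 1 and 2, or 38.6 and 45.1 CPM against 34.1 and 40.7 CPM. The groups overlapped in CPM. Their means were 41.8 ± 4.60 and 37.4 ± 4.68 CPM (SD, n = 2 each), a log2 fold change of 0.16 ± 0.47 (SE) that stayed between 0.04 and 0.30 with a library left out. On the RPKM scale, which was not rescaled between libraries, Btrc read 3.498 and 4.32 against 3.04 and 2.65 and did not overlap. On that scale the median log2 fold change of 8290 genes was itself 0.27 (pseudocount 0.5).

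Fbxw11 (chromosome 11, 32542875 to 32646814), which encodes beta-TrCP2, had 2151 and 2732 reads in Per3 KO 1 and 2 and 2197 and 1024 in WT 1 and 2. The levels were 51.9 and 37.5 CPM against 57.3 and 44.0 CPM, and the groups overlapped. The log2 fold change of -0.18 ± 0.48 (SE) turned to 0.03 without Per3 KO 2 and to 0.03 without WT 1. Per length, Btrc stood at 0.480 and 0.777 times Fbxw11 in Per3 KO 1 and 2 and at 0.377 and 0.597 times in WT 1 and 2. Thus Fbxw11 was the more abundant of the pair in each of the 4 libraries. The log2 ratio of Btrc to Fbxw11 averaged -0.71 ± 0.49 in Per3 KO and -1.07 ± 0.47 in WT libraries (SD, n = 2 each), and the difference of 0.36 was smaller than the spread (exact two-sided permutation test, p = 0.667).

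Fbxl21 (chromosome 13, 56623869 to 56639147), whose F-box protein binds cryptochromes, was near the limit of detection. It had 35 and 0 reads in Per3 KO 1 and 2 and 0.982 and 0 reads in WT 1 and 2, the fraction being an estimated count. The 35 reads have an exact Poisson interval of 24.4 to 48.7 reads (95%), and a count of 0 allows up to 3 reads (the one-sided limit, where the two-sided interval ends at 3.69 reads). The limit of 3 reads is 0.0412 CPM in Per3 KO 2 and 0.129 CPM in WT 2. These intervals cover counting error only. Fbxl21 was therefore read above the floor in 1 library of 4, and no fold change is given.

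None of the other ligases and deubiquitinases of clock proteins passed the test. Of 23 tested, the log2 fold change was positive in 16 and negative in 7, with a median of 0.32, beside 50.6% of all genes positive. Both Per3 KO libraries lay above both WT libraries for 7 (30.4%, beside 14.6% of all genes) and below for 2 (8.70%, beside 11.5%). The list held Pam, whose symbol in these tables is that of an amidating enzyme and not of the clock ligase of the same name. With Pam left out, an alternative chosen after seeing the data, 15 of 22 were positive (median 0.27) and 6 lay above. Among these genes the ligase gene Ube4b was at 37.5 and 56.3 CPM in Per3 KO 1 and 2 and 31.4 and 33.2 CPM in WT 1 and 2, differing by 0.54 ± 0.48 (log2, SE), or 0.21 without Per3 KO 2. The ligase gene Arih2 was at 33.9 and 32.5 CPM against 14.98 and 28.6 CPM (0.61 ± 0.54), or 0.22 without WT 1. The ligase gene Traf2 (0.67) overlapped, with 0.24 when Per3 KO 1 was left out and 0.11 when WT 2 was, and the chaperone-linked ligase gene Stub1 (-0.63) turned to 0.46 without WT 2.

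Of 18 genes of the SCF and cullin core, on which the F-box proteins work, the log2 fold change was positive in 9 and negative in 9 (median -0.02, between -0.31 without Per3 KO 1 and 0.14 without WT 2) and 0 passed. The scaffold gene Cul1 was at 51.5 and 59.5 CPM in Per3 KO 1 and 2 and 43.9 and 24.9 CPM in WT 1 and 2, and differed by 0.69 ± 0.51 (log2, SE), which became 0.34 without WT 2. The small subunit gene Rbx1 (-0.998), the modifier gene Nedd8 (-1.27) and the E2 enzyme gene Ube2r2 (-0.89) had the opposite sign. Without WT 2 the values of these 3 were -0.02, 0.19 and 0.45. In WT 2 Rbx1 was at 500.03 CPM, Nedd8 at 522 CPM and Ube2r2 at 176 CPM.

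Usp2 (chromosome 9) showed the largest log2 fold change of the 6 tested genes. It had 3475 and 6161 reads in Per3 KO 1 and 2 and 2059 and 807 reads in WT 1 and 2. The level was 83.9 and 84.5 CPM in the Per3 KO libraries and 53.7 and 34.7 CPM in the WT libraries, so the Per3 KO pair was nearly equal and lay above both WT libraries, which differed from each other. The means were 84.2 ± 0.449 and 44.2 ± 13.5 CPM (SD, n = 2 each). The log2 fold change of 0.93 ± 0.49 (SE) did not pass (edgeR unadjusted p = 0.0981, adjusted p = 1.00), and the adjusted p was between 0.217 and 1.00 over 14 alternatives. It stayed positive with each library left out, at 0.65 without WT 2 and 1.28 without WT 1. Set against Fbxw11 in the same library, a pair chosen after the values were seen, Usp2 was 1.72 and 2.34 times as high per length in Per3 KO 1 and 2 and 0.974 and 0.981 times as high in WT 1 and 2. The length used for Usp2 in WT 2 was shorter, as described below, and in CPM the ratio was 1.62 and 2.26 in Per3 KO 1 and 2 against 0.937 and 0.788 in WT 1 and 2.

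**Figure D2:**
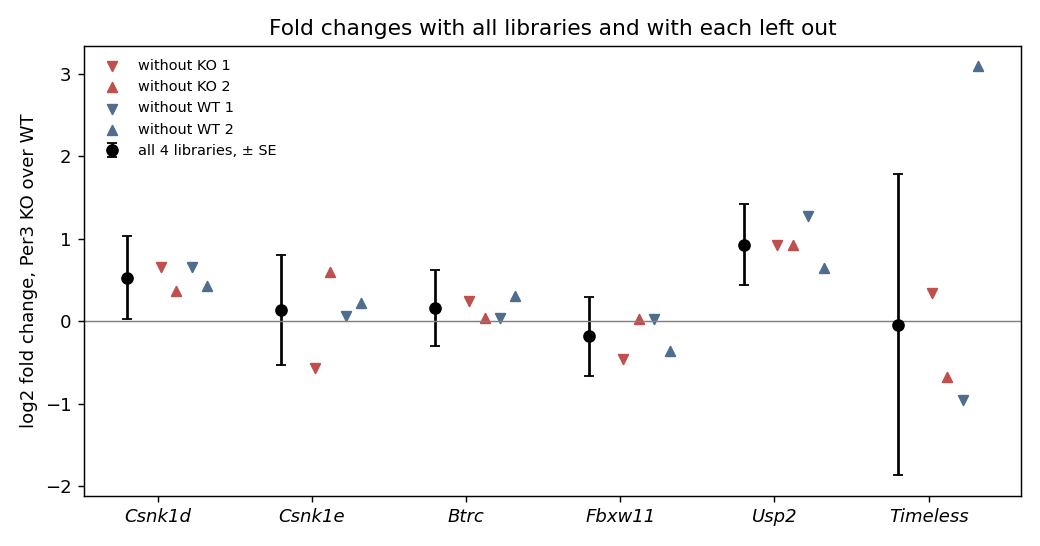
Log2 fold change (Per3 KO over WT) of the 6 tested genes with its standard error (black) and with each library left out (triangles). Usp2 stayed between 0.65 and 1.28 and Csnk1d between 0.37 and 0.66, whereas Timeless reached from -0.96 to 3.09.

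**Figure D3:**
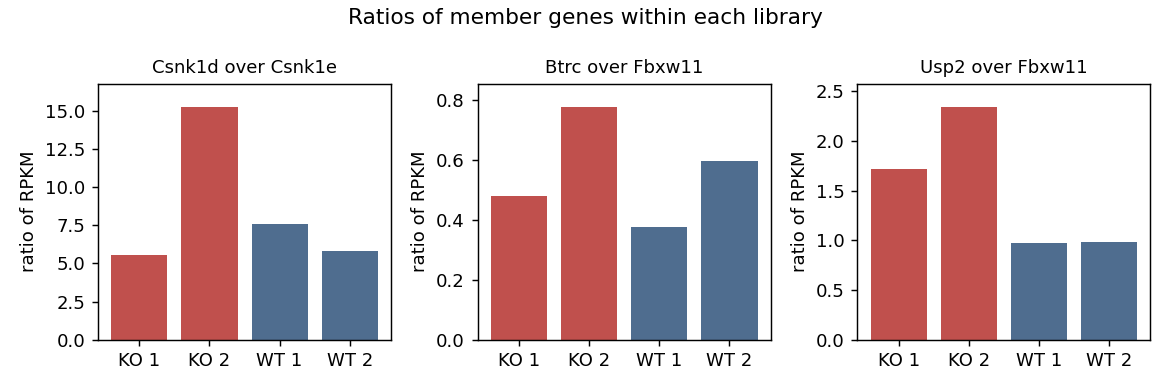
Ratios of RPKM within each library for Csnk1d over Csnk1e, Btrc over Fbxw11 and Usp2 over Fbxw11, as bars from 0, with the Per3 KO libraries in red and the WT libraries in blue. The first pair was set apart by Per3 KO 2 (15.3), the second overlapped between the groups, and the third was 1.72 and 2.34 in the Per3 KO libraries and 0.974 and 0.981 in the WT libraries, where WT 2 rests on a shorter Usp2 length.

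The tables did not describe Usp2 by the same transcript in all libraries. Its interval ended at 43903710 in all 4 tables (mm9), but began at 43877512 in Per3 KO 1, 43875104 in Per3 KO 2 and WT 1, and 43893003 in WT 2. The gene is known to be transcribed from more than 1 start, giving a long and a short protein form. The interval of 28607 bp in Per3 KO 2 and WT 1 has the span of a GENCODE transcript of 3867 nt, and the start in WT 2 lay 17899 bp further on. The start site of the RefSeq promoter window (GRCm38.p6) lies the same 17899 bp after the start of that transcript. The window is shown because it precedes the start listed for WT 2. It is 250 bases before to 50 after the start, at chr9:44084670-44084969 on the + strand, with the transcribed bases in capitals:
Usp2: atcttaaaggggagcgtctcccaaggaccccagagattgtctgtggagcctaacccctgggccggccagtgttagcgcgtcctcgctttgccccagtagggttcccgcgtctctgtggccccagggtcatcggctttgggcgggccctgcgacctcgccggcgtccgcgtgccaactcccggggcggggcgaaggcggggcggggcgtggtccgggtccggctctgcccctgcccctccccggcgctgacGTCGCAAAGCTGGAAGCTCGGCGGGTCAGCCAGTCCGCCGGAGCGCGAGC

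The length by which reads were divided differed accordingly. Read from reads over RPKM, it was 16.6% shorter in WT 2 and 2.54% shorter in Per3 KO 1 than in WT 1. On the longest length, Usp2 would read 12.2 and 13.0 RPKM in Per3 KO 1 and 2 and 7.84 and 3.63 RPKM in WT 1 and 2, where the deposited values were 12.6 and 13.0 against 7.84 and 4.36 RPKM. The ratio of Usp2 to Fbxw11 would be 1.68 and 2.34 against 0.974 and 0.819. The groups were apart both ways. Whether reads outside the listed interval were counted is not stated in the labels or headers, and its part in the low count of WT 2 was not tested. Such a change of over 5% was seen in 50 of 3997 genes with at least 500 reads in each library, or 1.25%. The lengths behind Csnk1d and Btrc differed by at most 1.73% between tables, and those behind Csnk1e and Fbxw11 did not differ beyond rounding.

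**Figure D4:**
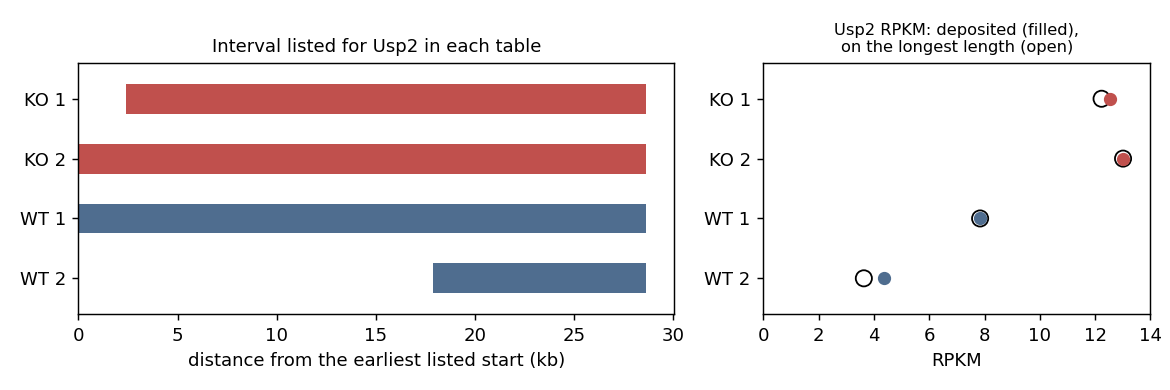
Left, the interval listed for Usp2 in each library's table, as distance in kb from the earliest listed start, and right, its RPKM as deposited (filled) and recalculated on the longest length (open). The interval of WT 2 began 17899 bp late, and its RPKM was 4.36 as deposited and 3.63 on the longest length, below the other 3 libraries either way.

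Usp2 is itself a known rhythmic output of the clock, and the clock genes were read beside it. The PAR bZIP output genes Tef and Dbp had log2 fold changes of 2.26 ± 0.53 and 2.45 ± 0.69 and the REV-ERB beta gene Nr1d2 had 1.495 ± 0.50, while Arntl, which encodes the activator BMAL1, had -1.41 ± 0.52 (SE). Of the 17 core clock genes tested, 11 were positive and 6 negative (median 0.49) and 0 passed the test. At an unadjusted edgeR p under 0.05, 3 of them were higher and 2 lower, beside 2.06% of all genes tested. Both Per3 KO libraries lay above both WT libraries for 6 (35.3%, beside 14.6% of all genes) and below for 4 (23.5%, beside 11.5%). The median was 0.09 without Per3 KO 2, 0.10 without WT 1 and 0.98 without Per3 KO 1. The clock genes named above, picked by smallest p, kept their sign with any library left out. Tef stayed between 1.94 and 2.67, Dbp between 2.07 and 2.97, Nr1d2 between 1.24 and 1.82 and Arntl between -1.64 and -1.22. Other tissues were read too, since Usp2 is expressed in muscle and liver. The 11 skeletal muscle markers summed to 30.7 and 29.6 CPM in Per3 KO 1 and 2 and 69.6 and 121 CPM in WT 1 and 2. The 7 hepatocyte markers summed to 0.724 and 1396 CPM against 264 and 46.1 CPM, and the 9 mature adipocyte markers to 13.0 and 30.4 CPM against 18.5 and 14.5 CPM. The part of these cell types in the Usp2 values was not tested.

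The genes of the substrates had fold changes of both signs, and none passed the test. Per2 is the period gene whose protein is the best known target of casein kinases 1 delta and epsilon. It was at 4.999 and 5.63 CPM in Per3 KO 1 and 2 and 1.64 and 0.731 CPM in WT 1 and 2. The log2 fold change was 2.15 ± 1.11 (SE). The groups of Per2 did not overlap, and the value stayed between 1.70 and 2.86 with any library left out. The WT libraries held only 63 and 17 reads of it. Per1 was at 11.3 and 8.95 CPM against 6.37 and 9.46 CPM and overlapped (0.36 ± 0.66, or 0.10 without WT 1). For Per3 the value was 0.54 ± 0.83, or -0.17 without Per3 KO 2. The cryptochrome gene Cry1 was at 7.65 and 4.21 CPM in Per3 KO 1 and 2 and 11.6 and 5.68 CPM in WT 1 and 2 (-0.54 ± 0.77), and Cry2 at 15.6 and 40.02 CPM against 8.11 and 31.5 CPM (0.49 ± 0.78). Both cryptochrome genes overlapped between the groups and changed sign when WT 1 was left out (0.07 and -0.17).

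Timeless (chromosome 10, ending at 127689988) was low in all 4 libraries. It had 29.99 and 111 reads in Per3 KO 1 and 2 and 5 and 51.0 reads in WT 1 and 2. The exact Poisson intervals (95%) were 20.2 to 42.8 and 91.3 to 134 reads in the Per3 KO libraries and 1.62 to 11.7 and 38.0 to 67.1 reads in the WT libraries, so the libraries of 1 group differed beyond counting error. The level was 0.724 and 1.52 CPM against 0.130 and 2.19 CPM, with the lowest and the highest library both WT. Its fold change, -0.04 ± 1.82 (log2, SE), became 3.09 without WT 2 and -0.96 without WT 1, and 0.33 on library totals, where the median of all genes was 0.21. The interval began at 127675122 in 3 tables and at 127669119 in WT 2, again the library with another start. In GENCODE (GRCm38), Timeless-201 and several other transcripts begin near 128232065, and Timeless-206 begins later, at 128238066. The window below lies at that later start, and no window at the earlier start was at hand. The RefSeq promoter window of Timeless, at chr10:128237816-128238115 on the + strand of GRCm38.p6, is shown because it was the only window of these genes with a searched clock motif, and the capitals mark a D-box match that begins at base -157 from the start:
Timeless: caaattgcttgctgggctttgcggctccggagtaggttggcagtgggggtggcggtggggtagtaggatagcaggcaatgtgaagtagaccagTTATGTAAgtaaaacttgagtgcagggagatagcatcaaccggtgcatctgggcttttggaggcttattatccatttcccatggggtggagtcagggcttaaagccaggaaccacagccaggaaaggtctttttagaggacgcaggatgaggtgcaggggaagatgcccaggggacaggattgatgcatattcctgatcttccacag

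Promoter windows of 300 bases were at hand for 5 of the 7 genes, Csnk1e, Fbxl21, Fbxw11, Timeless and Usp2, 8 windows in all. The letters searched on both strands were CACGTG (E-box), CACGTT (a variant of it), TTANNTAA (D-box, bound by the PAR bZIP factors), TNGGTCA (a REV-ERB and ROR half-site) and TGACGTCA (the cAMP response element). Among 32851 windows of all genes, 7.15% held the E-box, 4.69% its variant, 6.00% the D-box, 10.96% the half-site and 1.79% the cAMP response element. Apart from the D-box at the later start of Timeless no match was found, which says only that these letters are not in these windows.

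Timeless works at the replication fork with Tipin and Claspin, and their genes were far apart in level. Tipin was at 16.6 and 12.7 RPKM in Per3 KO 1 and 2 and 13.5 and 9.72 RPKM in WT 1 and 2, against at most 0.206 RPKM for Timeless. The log2 fold change of Tipin was 0.08 ± 0.48 (SE). Clspn, which encodes Claspin, had 43 and 18 reads in Per3 KO 1 and 2 and 7 and 0 reads in WT 1 and 2, and was thus low like Timeless. Of 28 genes of the replication fork and S phase, 16 were positive and 12 negative (median 0.09) and 0 passed. The median was -0.25 without Per3 KO 1 and between 0.29 and 0.35 without any other library. Their median level was 13.2 and 7.79 CPM in Per3 KO 1 and 2 and 13.5 and 7.09 CPM in WT 1 and 2, an order that Timeless did not share. The ribonucleotide reductase gene Rrm2 (1.18) was at 0.04 without Per3 KO 1 and 0.41 without WT 2, and the helicase gene Mcm3 (0.71) at -0.07 and 0.05. The replication protein A genes differed in sign. Rpa1 (0.36) was at -0.17 without WT 2, Rpa2 (-0.54) at 0.43 without WT 1 and Rpa3 (-0.88) at 0.34 without WT 2.

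Mitosis genes were positive in 9 of 9 (median 1.17), beside 50.6% of all genes, and 0 passed. Without Per3 KO 1 the count was 5 of 9 and the median 0.33, and without WT 2 it was 6 of 9 and 0.49. The median was 4.58 without WT 1 and 1.96 without Per3 KO 2. The cyclin gene Ccnb2 was at 41.6 and 15.3 CPM in Per3 KO 1 and 2 and 8.38 and 1.505 CPM in WT 1 and 2. The difference of 2.52 on the log2 scale was 1.63 without Per3 KO 1, 1.76 without WT 2 and 4.24 without WT 1. The other genes named by p also moved, with Ccnb1 (1.39) at 0.33 without Per3 KO 1 and 0.52 without WT 2, Mki67 (1.17) at 0.35 and 0.22, and Birc5 (0.78) at -0.23 and 0.49.

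Each tested gene was also matched to the gene of the pathway lists with the most similar profile, as the smallest root mean square difference of log2 CPM, each centred on its own mean over 4 libraries, among 120 genes. The difference was 0.13 for Csnk1d and Pam, here the amidating enzyme gene and not the clock ligase. It was 0.15 for Csnk1e and the clamp loader gene Rfc3, 0.12 for Btrc and the helicase gene Mcm6, and 0.11 for Fbxw11 and Csnk1g3. For Usp2 and Csnk1g1 it was 0.14, and for Timeless and the ligase adaptor gene Spsb4 it was 0.39. With 4 libraries many profiles are alike, and these pairs are a description.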

How the data were processed

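RNA of 4 libraries of sorted adipocyte precursors was read by the authors into 1 table per library. Per the file headers, the authors gave each gene an estimated count of reads, and values above 9999 are rounded. RPKM, as deposited, scales these reads by length and depth. The authors' Z-score (a score of RPKM within a library) and RMS-normalised RPKM (a ratio to the root mean square) were not used. The submitters' processing notes name STAR 2.4.0, Cufflinks, Cuffdiff 2.2.1 and mm9. The counting rule, strand and the treatment of shared reads are not stated.

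Counts were rounded and filtered with filterByExpr (minimum count 10, minimum total 15), leaving 12494 genes, scaled by TMM and compared with edgeR 4.0.16 in R 4.3.3 (quasi-likelihood test, genotype as the only term, two-sided, Benjamini-Hochberg, threshold 0.05). CPM are counts over TMM-scaled totals, and a standard error is the log2 fold change over the square root of F. Adjusted p-values are over all genes tested. Alternatives used DESeq2 1.42.0, limma 3.58.1, other scalings, filters and pseudocounts, a replicate block, and 3 of the 4 libraries, with a lone library taken to be as variable as the remaining group. The code was tested on simulated counts. Recovery of set changes was required only at a spread between libraries far below that of these data. The common biological coefficient of variation here was 0.74, so a gene that did not pass is not shown to be unchanged.

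The genes and lists were chosen with earlier results of these data known. Named genes were all 7, up to 4 per list by unadjusted p with a mean of at least 10 CPM, 8 fixed genes and each nearest profile. Csnk1g2 and Rpa1 were added after their values were seen, beside named genes of the same families. A further gene fixed for naming is not reported here. In GENCODE M21 (GRCm38) none of the 7 shares exonic bases with another gene on its strand, up to 4.15% lie opposite another gene (Usp2), and up to 3.13% of 50-base stretches occur in another gene (Usp2). Of the marker lists, leukocyte, endothelial, mural, epithelial, Schwann, erythroid and mesothelial sums overlapped between the groups.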

Additional observations from a re-analysis of the deposited data

How the results depend on the processing

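No clock protein regulator passed the threshold under the 14 alternatives, of which 10 tested Timeless. Over all genes, DESeq2 called 19, no filter 4 (Apoc3, Gm5506, Nr1d1 and Tnnc2), and limma with each of the 3 pseudocounts 1 (Gm5506), where the reported test called 0. With a library left out the calls ranged from 1 to 4, Gm5506 in each case. Library numbers do not mark pairs in the labels, and deviations of same-numbered libraries correlated at -0.14. The replicate block gave 1 call (Gm5506) and 0 of the 6 genes, and a crossed pairing, chosen after seeing the data, gave 2 (Gm5506 and Nr1d1). These genes were named after their values were seen.

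Of 80 fold changes of the 6 genes under an alternative, 69 had the reported sign and 11 did not. Timeless was at 0.33 on library totals, 0.92 with the replicate block and 0.91 with the crossed pairing. Fbxw11 was at 0.079, 0.088 and 0.071 in limma with pseudocounts of 0.5, 0.1 and 1, and Csnk1g3 at 0.016, 0.019 and 0.012. With a library left out, log2 fold changes that turned sign ranged from -0.57 to 0.60 for Csnk1e, -0.45 to 0.033 for Fbxw11, -0.96 to 3.09 for Timeless, -0.54 to 0.01 for Csnk1g3, -1.31 to 0.21 for Csnk2b, -1.13 to 0.18 for Ppp2cb, -1.25 to 0.46 for Stub1, -0.48 to 2.45 for Spsb4, -2.03 to 0.19 for Nedd8, -1.56 to 0.45 for Ube2r2, -1.71 to 0.34 for Rpa3, -0.070 to 1.99 for Mcm3, -1.28 to 0.43 for Rpa2, -0.30 to 0.89 for Rfc3, -0.23 to 1.36 for Birc5, -0.17 to 1.28 for Per3, -1.04 to 0.067 for Cry1, -0.35 to 1.78 for Cry2 and -0.18 to 0.29 for Tipin. Rpa1 ranged from -0.17 to 1.24 and Csnk1g2 from -0.66 to 4.90. The difference in the log2 ratio of Csnk1d to Csnk1e ranged from -0.25 to 1.21. The cause of these changes was not tested. Scaling by library totals put the median log2 fold change of all genes at 0.21. Of 28 group means of CPM under other scalings, 2 moved by more than 1 SD, both of Usp2 in the Per3 KO libraries (83.1 and 90.9). That SD was only 0.449 CPM about a mean of 84.2 CPM, since the values of this pair were nearly equal. Timeless and Fbxl21 had too few reads for a stable comparison. Fbxl21 had 35 reads in Per3 KO 1 and 0 in the deeper Per3 KO 2. Timeless had 5 reads in WT 1 and 51.0 in WT 2, the library with the fewest reads. The part of depth in these counts was not tested.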
